A study of Mus musculus with 4 samples.

Results

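The retinaldehyde dehydrogenases are the enzymes that WIN 18,446 is known to inhibit, and their transcripts were followed here in cultured neonatal mouse testes. The members are Aldh1a1, Aldh1a2, Aldh1a3 and Aldh1a7, and every probe set of the array whose only gene symbol is 1 of these was taken, which gave 6 of the 45101 probe sets in the table and all 4 of the genes, out of 18194 gene symbols on the array. Aldh1a3 had 3 probe sets and each of the other genes had 1. Testes of 129 strain mice aged 2 days post partum (dpp) were kept in organ culture for 24 h at 37 °C (serum 10%), and their RNA was hybridised to Affymetrix Mouse Genome 430 2.0 microarrays. The 2 vehicle samples received dimethyl sulfoxide, and the 2 treated samples received WIN 18,446 at 1 µM. The labels name no genetic modification in either group. They number the samples but name no separate animals or cultures for them, so the spread behind each p-value may be technical only. Whole testis holds germ, Sertoli, Leydig, peritubular and vessel cells together, and in such RNA fewer cells of a type and less RNA per cell cannot be told apart.

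Retinoic acid is made from vitamin A in a pair of oxidations: retinol is first turned into retinaldehyde, and a retinaldehyde dehydrogenase then turns retinaldehyde into retinoic acid in a step that is not reversed. In the testis, retinoic acid starts the differentiation of spermatogonia and their entry into meiosis. Aldh1a1 is known mainly from Sertoli cells, Aldh1a2 from germ cells and Aldh1a3 from Leydig cells, and Aldh1a7 is a close rodent relative of Aldh1a1. Which cells express each gene at the age used here was not tested. Whether Aldh1a7 itself makes retinoic acid or is inhibited by WIN 18,446 was not tested either. WIN 18,446, a bis(dichloroacetyl)diamine, acts on the enzymes themselves, and the arrays measure their transcripts, not enzyme activity.

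In RefSeq's annotation of mouse assembly GRCm38.p6, Aldh1a1 lies at chr19:20492583-20643463 and Aldh1a7 on the same chromosome at chr19:20692953-20727556, on the opposite strand, with 49489 bases between the ends of the 2 genes. Aldh1a2 lies at chr9:71215789-71296243 and Aldh1a3 at chr7:66390892-66427477. RefSeq's promoter table held 4 transcription starts for 3 of the 4 genes: 2 for Aldh1a1 and 1 each for Aldh1a2 and Aldh1a7. The 100 bases before the downstream start of Aldh1a1 and before the start of Aldh1a7 are printed because they show how close these neighbouring genes are, and those of Aldh1a2 for comparison, as the tested member with lower treated values. Each is written 5′ to 3′ on the gene's own strand, and capitals mark CCAAT and ATGCAAAT, motifs picked after the sequences were seen.
Aldh1a1, chr19:20601868-20601967, forward strand: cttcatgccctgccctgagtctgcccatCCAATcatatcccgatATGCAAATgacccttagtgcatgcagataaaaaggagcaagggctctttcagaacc
Aldh1a7, chr19:20727557-20727656, reverse strand: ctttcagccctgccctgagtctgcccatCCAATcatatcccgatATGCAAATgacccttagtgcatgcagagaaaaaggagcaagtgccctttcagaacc
Aldh1a2, chr9:71215689-71215788, forward strand: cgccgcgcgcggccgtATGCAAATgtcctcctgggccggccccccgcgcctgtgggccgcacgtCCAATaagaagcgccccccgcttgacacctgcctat

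The Aldh1a1 and Aldh1a7 sequences are the same at 94 of these 100 positions without gaps, and their longest identical run is 65 bases. In both, CCAAT begins 72 bases and ATGCAAAT 56 bases before the start. Aldh1a2 has both motifs in the reverse order, with ATGCAAAT 84 bases and CCAAT 36 bases before its start, but only 20 and 21 of its 100 positions match those of Aldh1a1 and Aldh1a7. On either strand of the 250 bases before a start, ATGCAAAT is found in 1.6% and CCAAT in 33.8% of the 32851 starts in the table. The upstream start of Aldh1a1 has neither. Direct repeats of AGGTCA with 2 or with 5 bases between the copies, patterns that retinoic acid receptors can bind, were each found in 0.00913% of all starts, and 0 of the 4 Aldh1a windows hold either, which says only that these letters are not in these windows. A match is a description of sequence and not a bound site. The Aldh1a1 probe set does not tell which of the 2 starts a transcript came from.

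The deposited values are log2 levels, so a difference of 1 is a 2.0-fold change. Each probe set has its own sensitivity, so where the difference between 2 probe sets is given per array, only its shift between groups can be read. Background was read from those bacterial control probe sets that read low (Dap, Lys, Phe, Thr and Trpn), the highest of which stood at 2.2169. Array medians ran from 3.72 to 3.83. In the 3 control probe sets of 18S ribosomal RNA, treated array 1 read below and treated array 2 above both vehicle arrays. The 5′ one read 6.55 and 8.67 on treated arrays 1 and 2, against 8.12 and 8.17 with vehicle. The 3′ one read 7.27 and 8.76 against 8.06 and 7.93, and the middle one 13.79 and 14.62 against 14.17 and 14.29. Differences between groups were tested with limma over the 20895 probe sets with a mean of at least 5 on the 4 arrays, and a probe set with a Benjamini-Hochberg adjusted p under 0.05 is called. Of the 6 Aldh1a probe sets, 3 passed this filter: those of Aldh1a1, Aldh1a2 and Aldh1a7, which lay above 5 on every array of both groups. The 3 probe sets of Aldh1a3 did not pass.

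**Figure D1:**
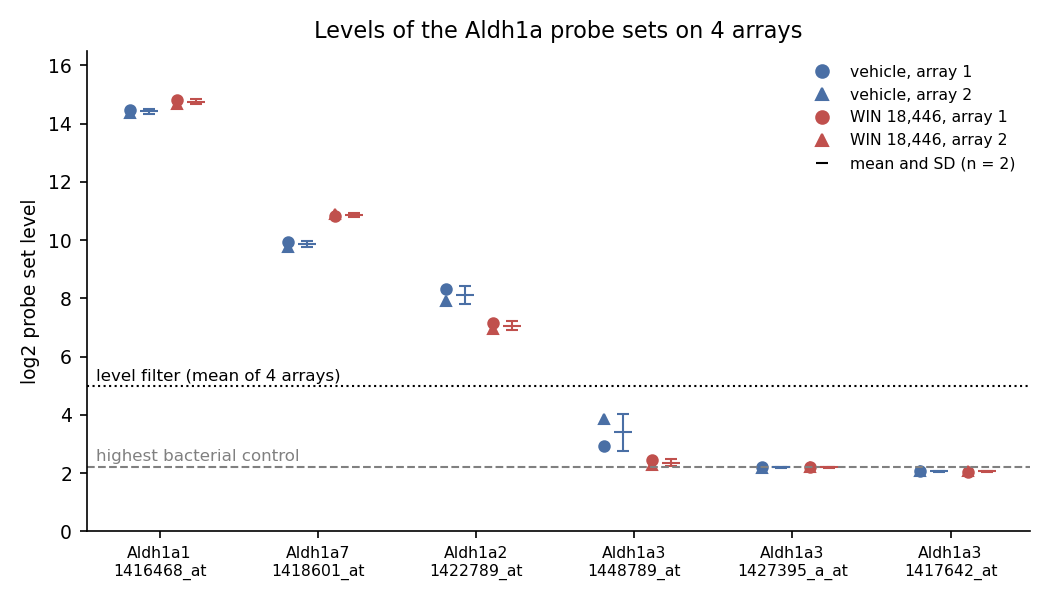
Log2 level of each Aldh1a probe set (horizontal axis) on the 2 vehicle arrays (blue) and the 2 WIN 18,446 arrays (red). The mean and SD of each group stand beside the points. The dashed line is the highest of the bacterial controls read as background (2.2169) and the dotted line the level filter (5). The treated arrays of Aldh1a7 lie above the vehicle arrays and those of Aldh1a2 below them, while 2 of the 3 Aldh1a3 probe sets sit at background.

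Aldh1a7 rose with WIN 18,446. It was the 1 of the 3 tested members to be called, where 5.18% of all probe sets tested were called, 2.27% higher and 2.91% lower. The Aldh1a7 probe set (1418601_at) read 9.93 and 9.78 with vehicle and 10.82 and 10.91 with WIN 18,446. The groups did not overlap, and the lowest treated array exceeded the highest vehicle array by 0.89. The means were 9.86 ± 0.11 and 10.87 ± 0.06 (log2, SD, n = 2), a difference of 1.01 (SE 0.12, 95% interval 0.70 to 1.32, limma adjusted p = 0.0224), or 2.01-fold with an interval of 1.62 to 2.5. A difference at least as large in either direction was seen in 5.17% of the probe sets tested. Every pairing of a treated with a vehicle array gave a difference between 0.89 and 1.13. The call rested on both vehicle arrays: without vehicle array 1 the difference was 1.09 (adjusted p = 0.28) and without vehicle array 2 it was 0.93 (adjusted p = 0.188), in fits that called 0 probe sets of the whole array. Without the level filter, in a fit that called 0.00666% of 45037 probe sets, the adjusted p was 0.0877, and over all 12 alternatives it ran from 0.013 to 0.28 while the difference stayed between 0.93 and 1.09.

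Aldh1a1, the retinaldehyde dehydrogenase known from Sertoli cells, was higher on both treated arrays by a small amount and was not called. Its probe set (1416468_at) read 14.48 and 14.36 with vehicle and 14.83 and 14.68 with WIN 18,446, in the upper part of the array's range, whose highest value was 16.2. The groups did not overlap, with 0.20 between the higher vehicle and the lower treated array. The means were 14.42 ± 0.09 and 14.76 ± 0.10 (SD, n = 2), a difference of 0.34 (0.335, SE 0.07, 95% interval 0.15 to 0.52, limma adjusted p = 0.0711), or 1.26-fold. A difference at least this large was seen in 28.2% of the probe sets tested. The adjusted p ran from 0.0209 to 0.383 over 12 alternatives, and 3 of them called the gene: a filter at a mean of 7 (adjusted p = 0.0484), the replicate number as a block (0.0209) and leaving out treated array 2 (0.0431).

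Aldh1a2, the retinaldehyde dehydrogenase known from germ cells, had the lowest treated values of the tested members relative to vehicle and was not called either. Its probe set (1422789_at) read 8.33 and 7.90 with vehicle and 7.16 and 6.95 with WIN 18,446. Both treated arrays lay below both vehicle arrays, with 0.74 between the groups, and the 2 vehicle arrays were 0.43 apart. The means were 8.12 ± 0.30 and 7.06 ± 0.15 (SD, n = 2), a difference of -1.06 (SE 0.23, 95% interval -1.66 to -0.47, limma adjusted p = 0.0724), which corresponds to 2.09-fold lower levels with an interval of 1.39 to 3.15. In size the difference was near that of Aldh1a7, and 4.63% of the probe sets tested differed by as much, but the spread between replicates was wider. The difference kept its sign in all 12 alternatives, from -1.28 without vehicle array 2 to -0.85 without vehicle array 1, and none of them called it (adjusted p from 0.0556 to 0.393).

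Aldh1a3, the retinaldehyde dehydrogenase known from Leydig cells, was at or close to background. Its brightest probe set (1448789_at) read 2.95 and 3.85 with vehicle and 2.45 and 2.28 with WIN 18,446. The treated arrays were the lower ones, but vehicle array 2 stood 0.91 above vehicle array 1, a wider gap than the 0.50 that separated the groups. The means were 3.40 ± 0.64 and 2.36 ± 0.11 (SD, n = 2), a difference of -1.04 that was not tested because the mean of the 4 arrays, 2.88, was under the filter. In the limma fit without the filter its adjusted p was 0.384. A second probe set (1427395_a_at) read 2.21, 2.19, 2.19 and 2.20 on vehicle arrays 1 and 2 and treated arrays 1 and 2. The third (1417642_at) read 2.07, 2.06, 2.05 and 2.06 in the same order. Both lay at or below the highest of the background controls on all 4 arrays, so they give no level for Aldh1a3. Their differences of -0.0032 and -0.0065 say nothing of the transcript.

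**Figure D2:**
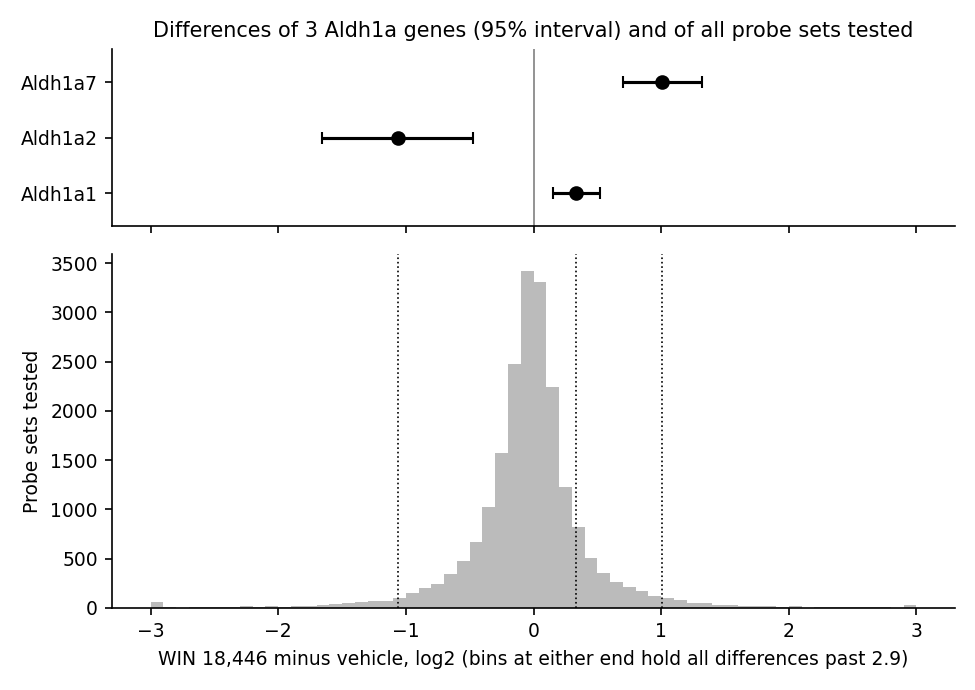
Above, the WIN 18,446 minus vehicle difference (log2) of the 3 tested Aldh1a genes with limma's 95% interval; below, the number of tested probe sets (of 20895) per 0.1 of that difference, with the 3 genes as dotted lines. Aldh1a7 (1.01) and Aldh1a2 (-1.06) lie on opposite sides in the thin parts of the distribution and Aldh1a1 (0.34) nearer its centre.

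The differences between the tested members were also read within each array. The SE of each shift below came from its own 4 values, without the moderation used in the limma fits. On each array the Aldh1a7 level minus that of Aldh1a2 was 1.60 and 1.87 with vehicle and 3.66 and 3.96 with WIN 18,446, a shift of 2.07 (SE 0.21), or 4.21-fold. Aldh1a1 minus Aldh1a2 was 6.15 and 6.45 with vehicle and 7.66 and 7.74 with WIN 18,446, a shift of 1.40 (SE 0.16). In both of these pairs the members' own differences had opposite signs. Aldh1a7 minus Aldh1a1 was -4.55 and -4.58 with vehicle and -4.00 and -3.77 with WIN 18,446, a shift of 0.68 (SE 0.12) between these close relatives. None of the 3 within-array differences overlapped between groups. For the pairs with Aldh1a2 this had to be so, since each member's own groups did not overlap and differed in opposite directions. The two-sided exact permutation p was 0.333 for each of the 3 pairs, which is the smallest that 2 arrays against 2 allow. The Aldh1a1 and Aldh1a7 transcripts are close relatives, and how far RNA of one binds the probes of the other was not tested, since probe sequences were not used here.

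All 3 tested members and the brightest Aldh1a3 probe set had groups that did not overlap, but so did 53.1% of the probe sets tested. Without treated array 1, whose 18S ribosomal RNA controls read lowest, Aldh1a7 differed by 1.06, Aldh1a2 by -1.17 and Aldh1a1 by 0.26. Without treated array 2, whose 18S controls read highest, the differences were 0.97, -0.96 and 0.41 in the same order. The unadjusted p was 0.000352 for Aldh1a7, 0.00531 for Aldh1a1 and 0.00548 for Aldh1a2, values that limma gave below 0.05 in 22.0% of the probe sets tested.

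**Figure D3:**
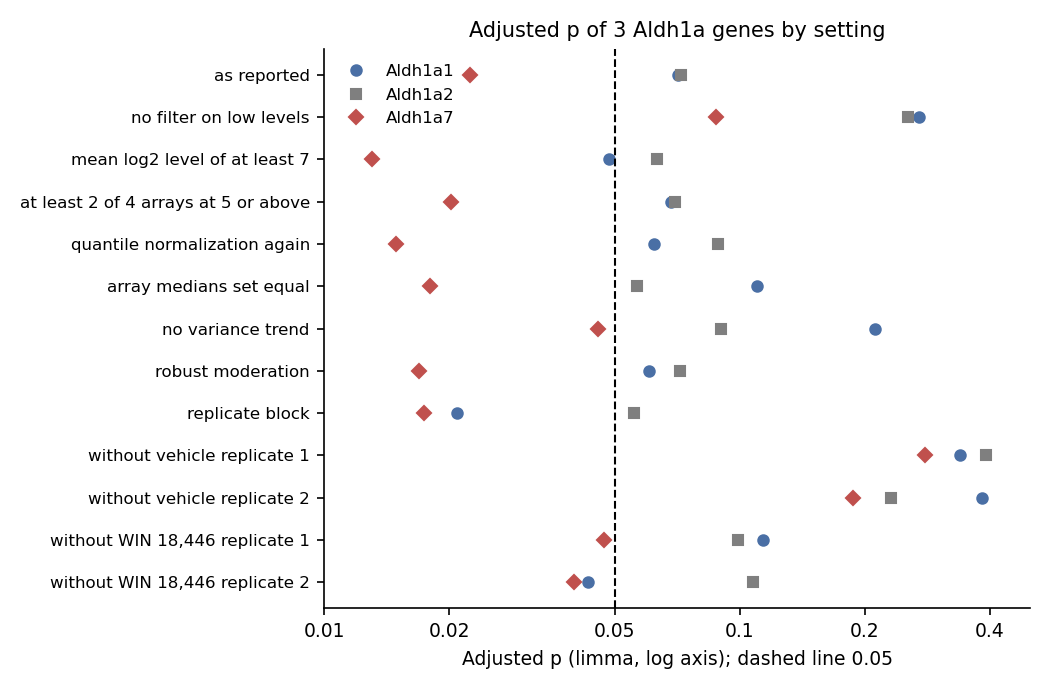
Adjusted p (limma, horizontal log axis) of Aldh1a1, Aldh1a2 and Aldh1a7 as reported and under each alternative setting (vertical axis), with the dashed line at 0.05. Aldh1a7 lies left of the line in all settings but 3 (no filter and either vehicle array left out), Aldh1a1 in 3 settings and Aldh1a2 in none.

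Some genes followed the members closely across the 4 arrays. Likeness was measured as the root mean square distance between the 4 log2 values after each probe set's own mean was subtracted, over 10969 other genes, each by its brightest tested probe set. Aldh1a7 was nearest to Tex11, a gene of meiotic recombination (distance 0.04), Fancd2, a DNA repair protein (0.04), and Aspm, a mitotic spindle protein (0.07). Their differences were 1.08, 0.94 and 1.05, and 24 genes lay within 0.1 of Aldh1a7. Aldh1a2 was nearest to the water channel Aqp5 (0.02), the myosin-binding protein Mybpc3 (0.02) and the carnosine synthase Carns1 (0.05), with differences of -1.07, -1.04 and -1.15 and 14 genes within 0.1. Aldh1a1 was nearest to D1Pas1, an RNA helicase, Mzt1, a microtubule nucleation protein, and Hsp90b1, a chaperone of the endoplasmic reticulum, all at 0.01 to 0.02, with 536 genes within 0.1, so its pattern was shared by many more genes than those of Aldh1a7 and Aldh1a2. With 4 arrays in 2 groups, such likeness mostly follows the size of the group difference.

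The other genes of the pathway were read from lists by role, each gene by its brightest tested probe set. Of 25 tested genes, out of 48 on the array, 1 was called higher, 6 lower and 18 were not called, where 6.4% of the 10970 genes tested were called, 2.94% higher and 3.46% lower. The median difference was -0.16 over these genes and -0.025 over all genes tested. At retinol entry, Stra6, through which cells take up retinol, read 8.19 and 8.28 with vehicle and 6.52 and 6.26 with WIN 18,446 and fell by 1.84 (limma adjusted p = 0.0192), while the lipoprotein lipase Lpl rose by 0.92 (adjusted p = 0.0109) and 2 of 4 tested were not called.

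Of 9 tested genes of the step between retinol and retinaldehyde, Dhrs3, which reduces retinaldehyde to retinol and so draws on the same substrate as the Aldh1a enzymes, read 10.57 and 10.52 with vehicle and 9.18 and 9.20 with WIN 18,446 and fell by 1.36 (adjusted p = 0.0135). Dhrs7, a short-chain dehydrogenase, fell by 0.58 (adjusted p = 0.0497), and the other 7 were not called. Among them Rdh10, which oxidises retinol to the substrate of the Aldh1a enzymes, differed by -1.02 (adjusted p = 0.0889), while its dimmer probe set fell by 1.14 (adjusted p = 0.0364). None of the 7 tested genes of retinoic acid binding, reception and breakdown was called by limma, with 1 at an unadjusted p under 0.05: Fabp5, a carrier of fatty acids and retinoic acid, differed by 0.24 (adjusted p = 0.0983), and the receptor Rxrb by 0.20 (adjusted p = 0.328). Among 5 tested genes that retinoic acid is known to induce, Gata6 (-0.84, adjusted p = 0.0311), Rarres1 (-0.68, adjusted p = 0.0288) and Sall4 (-0.60, adjusted p = 0.0157) fell and 2 were not called. Btg2, an antiproliferative gene and 1 of these 2, differed in the opposite direction (1.67, adjusted p = 0.0592). Tgm2, the other, differed by -0.30 (adjusted p = 0.214). The dimmest tested probe set of Tgm2 differed by -1.25 (limma adjusted p = 0.0322), and the rest were lower but not called. Stra8, a germ cell gene switched on before meiosis, lay under the filter, with 7.02 and 6.42 on the vehicle arrays and 2.03 and 2.04, at background, on the treated arrays. Outside the Aldh1a group, 13 genes of the wider aldehyde dehydrogenase family were tested, with a median of -0.14. Called higher were the mitochondrial folate enzyme Aldh1l2 (2.06, limma adjusted p = 0.0238) and the proline synthesis enzyme Aldh18a1 (0.67, limma adjusted p = 0.0168). The other 11 were not called in either direction. By value alone, 9 of the 13 were lower with WIN 18,446 and 4 higher. An unadjusted limma p under 0.05 was seen in 6, the called genes included. Aldh3a2, which was not called, differed by -0.48 (limma adjusted p = 0.0605). Without vehicle array 1 or without vehicle array 2 limma called 0 genes of these lists: among the 25 pathway genes 9 and 8 then had an unadjusted p under 0.05, and among the 13 family genes 3 and 5.

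**Figure D4:**
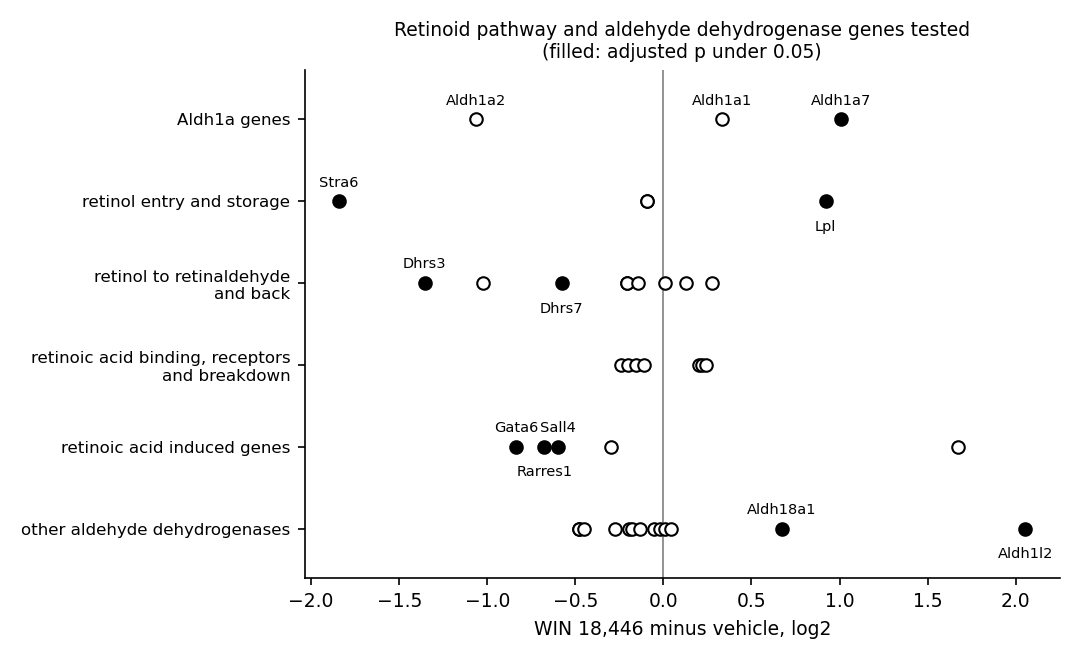
WIN 18,446 minus vehicle difference (log2, horizontal axis) of each tested gene, by list (vertical axis); filled circles are called (adjusted p under 0.05) and named, open circles are not called, and the Aldh1a genes are all named. Aldh1a2 lies on the same side of 0 as Stra6 and Dhrs3, and Aldh1a1 and Aldh1a7 on the other.

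Markers of the cell types of the testis were read beside the members, and their part in the Aldh1a differences was not tested. The summed level of a marker list is given as log2 of the sum over its tested genes. Of all 10970 genes tested, 2.94% were called higher and 3.46% lower, and 6013 had a lower value with WIN 18,446. Of 11 Sertoli cell markers 5 were called lower (Sox9, Cldn11, Sox8, Wt1 and Dhh) and 0 higher, with a median of -0.43. Amh, the anti-Müllerian hormone, was not called and differed in the opposite direction (1.25, adjusted p = 0.0575), and Gata4 (0.02) and Clu (0.06) were also above 0. The list had summed levels of 16.97 to 17.02 with vehicle and 16.69 to 16.76 with WIN 18,446. Of 10 tested germ cell markers 1, Tdrd9, was called lower, the median was 0.07, and summed levels were 14.31 to 14.41 and 14.42 to 14.44. The mean of their log2 levels went the other way, with 10.39 to 10.41 with vehicle and 10.30 to 10.37 with WIN 18,446. None of 6 Leydig cell markers was called by limma (3 at an unadjusted p under 0.05). Of these markers 5 were lower, and their summed levels were 15.46 to 15.59 and 15.38 to 15.52. All 5 tested peritubular and smooth muscle markers were lower and 1 of them, Des, was called (summed levels 15.16 to 15.19 and 14.86 to 14.94). Of the 5, 4 had an unadjusted limma p under 0.05. A dimmer probe set of Mylk differed by -0.65 (limma adjusted p = 0.0302). Cnn1 was at background.

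All 6 tested of 9 endothelial markers had lower treated values and an unadjusted limma p under 0.05, and 1 of them (Robo4) was called. Their median was -0.96, and summed levels were 11.09 to 11.55 with vehicle and 10.24 to 10.42 with WIN 18,446. Of 8 macrophage markers 2 were tested and 0 called by limma (0 at an unadjusted p under 0.05), with summed levels of 8.23 to 8.90 and 7.95 to 8.89, and Cd163 and C1qa were at background. The 1 erythroid marker tested of 4, Hbb-b2, was not called and read 10.38 to 10.53 and 8.62 to 9.45, and Hba-a1 and Alas2 were at background. Of 10 markers of epididymal, mesonephric and mesothelial cells, which can come with a dissected testis, 3 were tested and 0 called by limma (0 at an unadjusted p under 0.05), with summed levels of 10.26 to 10.39 and 10.49 to 10.56, and the defining markers Upk3b, Msln and Lcn8 were at background on all 4 arrays.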

How the data were processed

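The deposited table holds log2 probe set levels, 1 column per array, already normalized by the authors when deposited. Per the submitters' processing notes, RMA and GCRMA were used, with no version and no word on which made the table. About 100 ng of total RNA per sample was amplified and 3.75 µg of cDNA labelled, per the labels' protocols. The log2 scale was read from the values.

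The 64 control probe sets were left out. Probe sets were named from GEO's annotation of the array, in which 34945 have 1 symbol, 932 have several and the rest are unnamed here. All 4 member genes were found by gene ID in RefSeq's table of GRCm38.p6, whose promoter table gave the sequences. WIN 18,446 was compared with vehicle in limma 3.58.1 under R 4.3.3 (lmFit and trended eBayes moderation), 2 residual degrees of freedom, two-sided, with Benjamini-Hochberg adjustment over 20895 probe sets. The fit was tested on simulated data, where the share of false calls was above the nominal one. Promoters were aligned with Biopython 1.88. Precision is limited by the number of arrays, 2 in each group.

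The members and lists were chosen with earlier results of these data known. Genes named from a pathway list are those called (at most 6), or the 2 of smallest p where none was. Stra8, Btg2, Tgm2, Rdh10, Aldh3a2, Amh, Gata4, Clu, Mylk and the motifs CCAAT and ATGCAAAT were chosen after their values or letters were seen. Alternatives changed the level filter (none; a mean of at least 7; 2 of 4 arrays at 5 or above), the scaling (quantile normalization repeated; equal array medians), the moderation (without a trend; robust), the design (replicate number as block; any 1 array left out), the threshold (adjusted p under 0.1) and, for lists, the probe set (mean of all).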

Additional observations from a re-analysis of the deposited data

How the results depend on the processing

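The sign of the differences of Aldh1a1, Aldh1a2, Aldh1a7 and the brightest Aldh1a3 probe set held in all alternatives run. Left-out arrays moved them over 0.26 to 0.41 for Aldh1a1, -1.28 to -0.85 for Aldh1a2, 0.93 to 1.09 for Aldh1a7 and -1.49 to -0.58 for Aldh1a3. Among the settings with all 4 arrays and a threshold of 0.05, Aldh1a7 (1.01) lost its call with no level filter. Aldh1a1 (0.335, 0.34 rounded) gained one with a filter at 7 and with the replicate block. Left-out arrays changed calls of both genes too, as given for each gene above. The cause was not tested.

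Limma called 1083 probe sets as reported, 3 with no filter (where 24142 more, with means under 5, were tested), 372 with no variance trend, 2216 at an adjusted p under 0.1, and 0 to 1398 with an array left out: 0 when vehicle array 1 was dropped, 0 when vehicle array 2 was (unadjusted p under 0.05 in 2455 and 2820), and 664 without treated array 1. These fits take the lone array to vary as the other group does. Of the Aldh1a probe sets 1 was called as reported, 0 with no filter (4 of 6 at an unadjusted p under 0.05), 2 with a filter at 7, 2 with the replicate block, 3 at an adjusted p under 0.1, and 0 to 2 with an array left out.

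Of the pathway genes 7 were called as reported, 0 with no filter (13 at an unadjusted p under 0.05), 3 with no variance trend, and 0 to 8 with an array left out. Of the other aldehyde dehydrogenases 2 were called as reported, 0 with no filter (6 at an unadjusted p under 0.05), 1 with no variance trend, and 0 to 2 with an array left out. Aldh3a2 was called, lower, under 5 settings: a filter at 7, both rescalings, the block and the mean of a gene's probe sets. Btg2 was called, higher, under 5: a filter at 7, both rescalings, robust moderation and the block. Tgm2 was called, lower, with the mean of a gene's probe sets. Stra8 was called, lower, with 2 of 4 arrays at 5 or above, a filter that it passed only through its vehicle arrays. With no filter the limma adjusted p of Stra8 was 0.075. Rdh10 was called, lower, under 3: the block, without treated array 2 and the mean of probe sets.

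The labels do not say whether the replicate numbers pair the samples. The correlation of same-numbered deviations over the probe sets tested was 0.014, which cannot settle it. With the numbers as a replicate block limma called 1467 probe sets, and Aldh1a1 had an adjusted p of 0.0209.

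Aldh1a3 lies too near background for a change to be measured on 2 of its 3 probe sets.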
